A study of Mus musculus with 8 samples.

Results

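Expression of 36 cell cycle and DNA replication genes was examined in 8 mouse tumours. The genes are the rows of the deposited count table that carry 1 of 36 fixed symbols, out of 55450 rows in all, and each symbol matched 1 row. They were kept apart as 18 genes used mainly in S phase and 18 used mainly in mitosis. All 36 passed the filter on low counts, with 232 to 8851 reads per gene and tumour, so no member was dropped.

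The tumours were flank grafts of MOC1, an established mouse line of oral squamous cell carcinoma, grown in C57BL/6 mice. The checkpoint-blocking antibody anti-PD-1 was given to every mouse together with antisense oligonucleotides (ASOs), short synthetic strands that pair with a chosen transcript, for 32 days. In 3 mice the ASOs were controls, and in 5 they targeted Smyd3, which encodes a lysine methyltransferase. Among the 5 Smyd3 ASO tumours, 2 are labelled responders (numbered 1 and 3), 2 non-responders, and 1 (numbered 2) has no response label and is called the unmarked tumour here. The labels give the non-responders no replicate number, so 1 and 2 are only their order in the series. No group without anti-PD-1 and no group without an ASO was analysed here, and responders were defined by outcome. All tumours come from 1 cell line, and the resected tissue holds host cells as well as tumour cells.

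Libraries held 22103853 to 27258700 expected counts, and mitochondrial genes took 1.94% to 2.58% of them. Values below are CPM, read counts scaled to library size, after TMM scaling, a scaling that allows for differences in library composition. The ASO target was lower in each Smyd3 ASO tumour than in each control. Smyd3 stood at 10.7, 11.9 and 10.6 CPM in controls 1 to 3, at 8.68 and 4.38 CPM in responders 1 and 3, at 4.58 CPM in the unmarked tumour, and at 9.26 and 4.88 CPM in non-responders 1 and 2. The log2 fold change was −0.80 (SE 0.29), which did not pass in the edgeR fit over all genes (FDR 0.246). Responder 1 and non-responder 1 were the Smyd3 ASO tumours closest to the controls. The epithelial markers Krt5, Krt14 and Trp63 were present in all 8 tumours, with Krt5 at 6771 to 14496 CPM.

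Cells copy their genome in S phase and separate the copies in mitosis. In G1, cyclin E and the E2F transcription factors commit the cell to replication, the MCM helicase is loaded on origins by Cdc6 and Cdt1, and ribonucleotide reductase and thymidylate synthase supply nucleotides. Later, cyclins A and B with Cdk1 drive entry into mitosis, where motor proteins, Aurora and Polo kinases and the spindle checkpoint move and guard the chromosomes. Transcripts of S phase genes are known to be controlled through E2F sites, and transcripts of many mitotic genes through CHR elements and CCAAT boxes. In squamous carcinoma these transcripts are widely used as a gauge of how many cells are cycling. In bulk tissue, a smaller share of cycling cells and less transcript per cycling cell cannot be told apart.

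The promoters of the S phase and mitotic genes are shown because the rule for choosing the genes did not use them. RefSeq promoter windows (GRCm38.p6, from 250 bases before to 50 bases after the start of a transcript, 300 bases in all) were found for 29 of the 36 genes, 15 S phase and 14 mitotic. The 7 without a window were Mcm4, Ccne2, Gins2, Ccna2, Aurkb, Kif20a and Tpx2. Exact letters were searched on both strands, namely TTTCCCGC and TTTGGCGC for E2F, TTTGAA for the CHR element and CCAAT for the CCAAT box. The E2F letters were found in 6 of 15 S phase genes (Mcm3, Mcm5, Mcm6, Mcm7, Cdc6 and Cdt1) and in 0 of 14 mitotic genes, against 1.8% of 27025 genes with a window of this length. The CHR letters were found in 10 of 14 mitotic genes, which is 71.4%, and in 2 of 15 S phase genes (Mcm2 and Cdc45), against 20.2% of all genes. Counting TTTAAA as a CHR as well gave 13 of 14 and 6 of 15, against 30.6%. CCAAT letters were in 13 of 14 mitotic and 9 of 15 S phase genes, against 41.1% of all genes. No match of one motif overlapped a match of another. A match describes the letters of the window and does not show that a factor binds there.

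The 150 bases before the start are printed 5′ to 3′ on the strand of the gene for 2 S phase genes with E2F letters and 3 mitotic genes with CHR letters, with all matches in capitals. Matches on the other strand read GCGCCAAA for E2F, TTCAAA for CHR and ATTGG for CCAAT. The first letter of the E2F matches lies at −110 and −47 in Mcm6 and at −149 in Mcm5, counted from the start. The CHR letters begin at −116 and −98 in Mki67, at −23 in Top2a and at −19 in Kif11.
Mcm6, chr1:128359706-128359855, minus strand: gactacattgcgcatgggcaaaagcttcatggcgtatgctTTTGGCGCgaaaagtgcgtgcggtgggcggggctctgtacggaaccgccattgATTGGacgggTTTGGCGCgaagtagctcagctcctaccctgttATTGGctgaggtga
Mcm5, chr8:75109359-75109508, plus strand: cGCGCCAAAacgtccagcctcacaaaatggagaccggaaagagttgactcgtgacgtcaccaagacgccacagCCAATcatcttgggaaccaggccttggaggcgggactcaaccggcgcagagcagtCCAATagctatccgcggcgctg
Mki67, chr7:135716380-135716529, minus strand: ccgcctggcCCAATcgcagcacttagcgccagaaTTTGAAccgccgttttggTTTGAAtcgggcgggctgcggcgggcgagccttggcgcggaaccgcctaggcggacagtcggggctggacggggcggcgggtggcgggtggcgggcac
Top2a, chr11:99024190-99024339, minus strand: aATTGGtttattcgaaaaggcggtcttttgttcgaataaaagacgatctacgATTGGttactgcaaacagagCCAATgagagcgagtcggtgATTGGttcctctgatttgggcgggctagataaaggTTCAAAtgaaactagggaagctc
Kif11, chr19:37376232-37376381, plus strand: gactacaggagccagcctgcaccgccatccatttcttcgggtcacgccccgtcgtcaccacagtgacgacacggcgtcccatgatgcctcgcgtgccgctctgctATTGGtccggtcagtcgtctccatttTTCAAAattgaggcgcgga
In the windows of the 3 mitotic genes, CCAAT letters lie upstream of the CHR letters nearest the start, and the window of Mcm6 holds the E2F letters 2 times. The expression of these 5 genes is given with the other members below.

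Levels of different genes were compared roughly, per kilobase of the longest annotated protein-coding transcript. Which transcripts of a gene were expressed was not taken into account. By this measure the most abundant member was Pcna at 108 CPM per kb averaged over the 8 tumours. Tk1 followed at 51.8 and Top2a at 50.7 CPM per kb. The least abundant were Gins2 at 3.44, Cdc6 at 3.86 and Cenpf at 4.24 CPM per kb. Levels thus ranged widely among genes that act in the same step.

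The plot of all 36 genes by tumour shows the main feature of the data. Non-responder 1 had the highest value of the 8 tumours in 32 of 36 genes (15 S phase and 17 mitotic), while it was highest in 18.5% of all genes tested. Non-responder 2 had the lowest value in 17 of 36, against 7.99% of all genes, and control 2 had the lowest in 14, against 20% of all genes. The 2 non-responders thus stood near opposite ends. The 4 members not highest in non-responder 1 were Rrm1 (highest in the unmarked tumour), Mcm6 and Tyms (highest in responder 1) and Plk1 (highest in control 1).

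**Figure D1:**
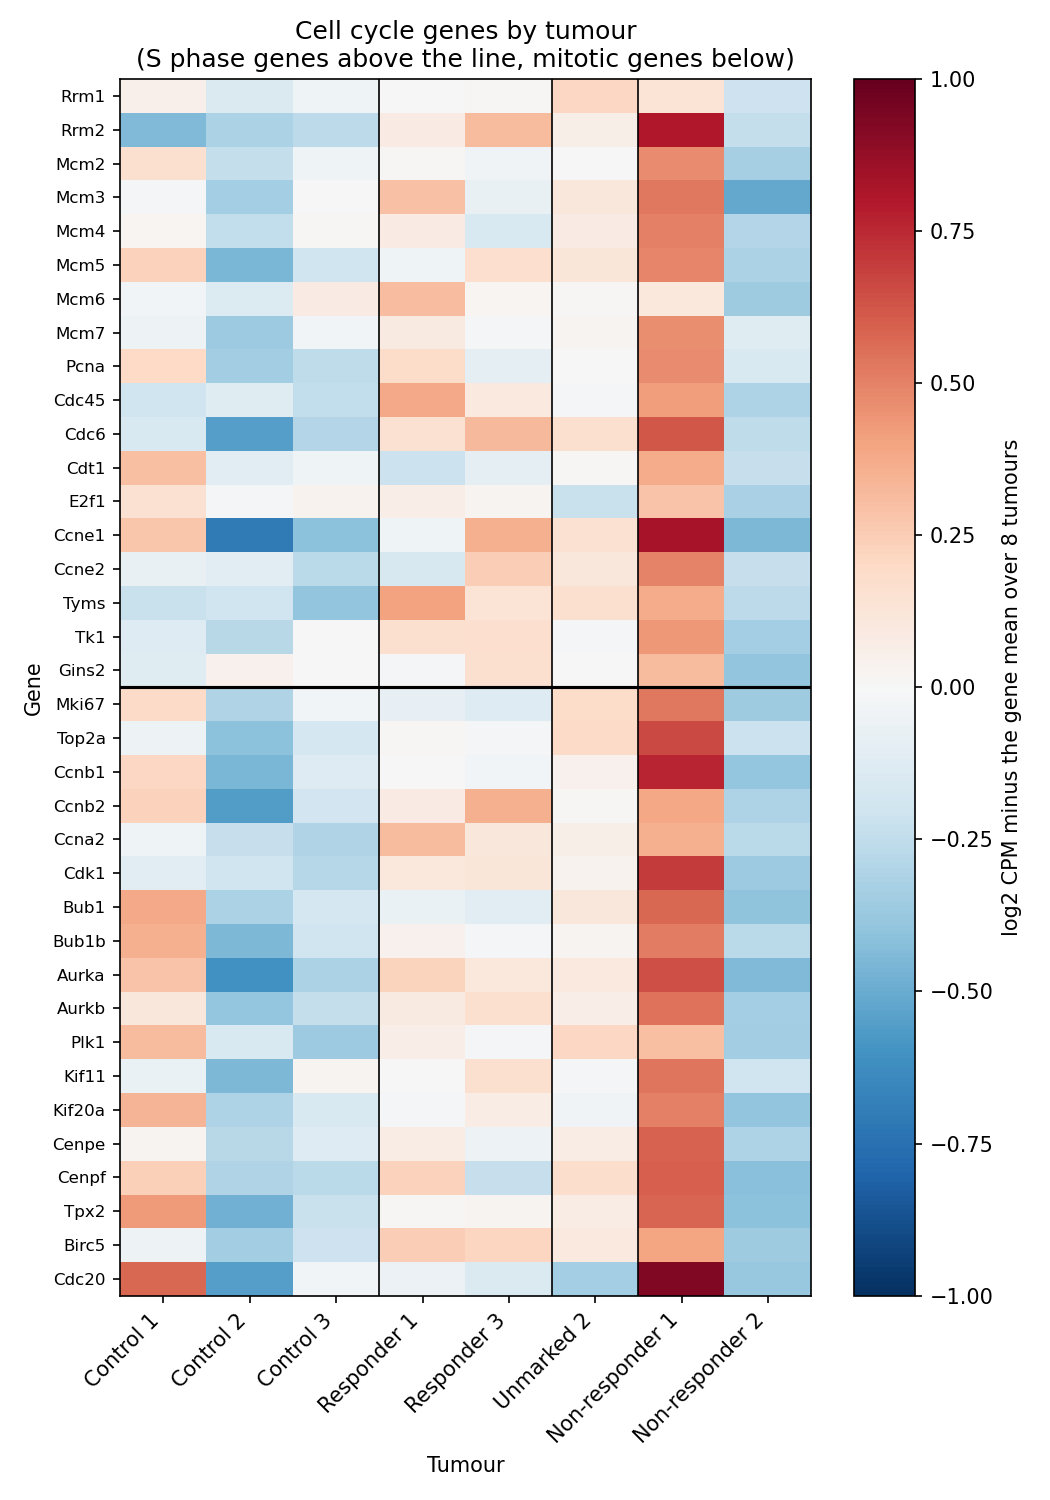
Each row is 1 gene and each column 1 tumour, and colour gives log2 CPM minus the mean of that gene over the 8 tumours, with S phase genes above the thick line and mitotic genes below it. The column of non-responder 1 is red almost throughout, and the columns of control 2 and non-responder 2 are mostly blue.

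Among the S phase genes, those for nucleotide supply held 2 of the 3 smallest p-values between the arms. Rrm2, the small subunit of ribonucleotide reductase (ENSMUSG00000020649.11, mm10 chromosome 12, 24708241 to 24714146), stood at 45.1, 49.3 and 51.2 CPM in the controls. It stood at 65.1 and 76.3 CPM in responders 1 and 3, at 63.8 CPM in the unmarked tumour, and at 107 and 52.0 CPM in non-responders 1 and 2. Every Smyd3 ASO tumour was thus above every control, although non-responder 2 was above the highest control by less than 1 CPM. The log2 fold change between the arms was 0.59 (SE 0.21), with an edgeR FDR of 0.252. Rrm2 was the single member whose arms did not overlap, where 5.45% of all genes were higher and 5.14% lower without overlap.

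Tyms, thymidylate synthase (chromosome 5, 30058202 to 30073617), was at 27.3, 27.7 and 24.2 CPM in the controls. Responders 1 and 3 had 42.0 and 35.0 CPM, the unmarked tumour 35.5 CPM, and non-responders 1 and 2 had 41.2 and 26.5 CPM. Here 4 of 5 Smyd3 ASO tumours exceeded all controls, and non-responder 2 lay within the control range (log2 fold change 0.45, SE 0.16, edgeR FDR 0.227). Tk1, thymidine kinase, ranged from 58.1 CPM in non-responder 2 to 99.5 CPM in non-responder 1. The large subunit Rrm1 had the narrowest range of the 36 genes, from 144 CPM in non-responder 2 to 192 CPM in the unmarked tumour, and a log2 fold change between the arms of 0.08 (SE 0.11).

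The 6 subunits of the MCM helicase behaved alike but for Mcm6. Mcm2 (chromosome 6, 88883474 to 88898780) was at 93.5, 71.3 and 81.5 CPM in the controls. Responders 1 and 3 had 84.6 and 81.8 CPM and the unmarked tumour 83.7 CPM, so these 3 differed little. Non-responders 1 and 2 had 117 and 66.7 CPM, the highest and lowest values of all tumours. Mcm7 (chromosome 5, 138164583 to 138172422) followed a similar course, with 99.4, 80.2 and 100.8 CPM in controls, 109 and 102 CPM in responders 1 and 3, and 105 CPM in the unmarked tumour. Its values in non-responders 1 and 2 were 142 and 94.5 CPM. Mcm6 (chromosome 1, 128331590 to 128359664) instead peaked in responder 1.

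Mcm6 was at 103, 95.6 and 111 CPM in the controls, at 129.8 and 106 CPM in responders 1 and 3, at 106 CPM in the unmarked tumour, and at 113 and 81.9 CPM in non-responders 1 and 2. It had the smallest p of the S phase genes between responders and non-responders, with a log2 fold change of 0.28 (SE 0.19, edgeR FDR 0.702). The other 3 subunits, Mcm3, Mcm4 and Mcm5, were 1.74 to 2.05 times as high in non-responder 1 as in non-responder 2. Between the arms, log2 fold changes of the 6 subunits ran from 0.06 for Mcm6 to 0.24 for Mcm7.

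The 2 loading factors of the helicase differed from each other. Cdc6 (chromosome 11, 98907801 to 98923940) was at 15.5, 11.8 and 14.1 CPM in controls, at 19.2 and 21.6 CPM in responders 1 and 3, and at 19.3 CPM in the unmarked tumour. Non-responders 1 and 2 had 26.5 and 14.5 CPM, so that 4 of 5 Smyd3 ASO tumours lay above every control (log2 fold change 0.55, SE 0.20, edgeR FDR 0.235). Cdt1 (chromosome 8, 122568015 to 122573554) was at 33.4, 25.2 and 26.3 CPM in controls, 23.4 and 25.5 CPM in responders 1 and 3, and 27.3 CPM in the unmarked tumour. Its values in non-responders 1 and 2 were 35.0 and 23.2 CPM, and its log2 fold change between the arms was −0.07 (SE 0.17). The arms overlapped for both genes.

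At the replication fork, Pcna, the sliding clamp of the polymerases (chromosome 2, 132249162 to 132253314), was at 184, 126 and 135 CPM in the controls. Responders 1 and 3 had 183 and 150.4 CPM, the unmarked tumour 161 CPM, and non-responders 1 and 2 had 224 and 145 CPM. All Smyd3 ASO tumours other than non-responder 1 lay within the range of the controls. Cdc45, a helicase partner of the MCM ring (chromosome 16, 18780447 to 18811987), was at 15.4, 16.2 and 14.9 CPM in controls, 22.9 and 18.9 CPM in responders 1 and 3, and 17.4 CPM in the unmarked tumour. Non-responders 1 and 2 had 23.5 and 14.2 CPM, the latter below all controls. Gins2, another helicase partner, ran from 10.1 to 16.6 CPM, with the same 2 tumours at the ends.

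Of the genes that control entry into S phase, E2f1 varied least. E2f1 (chromosome 2, 154559407 to 154569892) was at 23.3, 20.8 and 21.5 CPM in controls, 22.02 and 21.4 CPM in responders 1 and 3, and 17.97 CPM in the unmarked tumour. Non-responders 1 and 2 had 25.6 and 16.7 CPM, and the log2 fold change between the arms was −0.07 (SE 0.15). Ccne1, cyclin E1 (chromosome 7, 38097984 to 38107534), had the widest range of the 36 genes, 2.89 times from the lowest to the highest tumour. It was at 20.8, 10.5 and 12.9 CPM in controls, at 16.7 and 21.99 CPM in responders 1 and 3, at 19.1 CPM in the unmarked tumour, and at 30.4 and 12.5 CPM in non-responders 1 and 2. Control 1 alone was nearly as high as responder 3, and the log2 fold change of 0.45 (SE 0.31) between the arms had an edgeR FDR of 0.535. Ccne2, cyclin E2, ran from 15.9 CPM in control 3 to 26.9 CPM in non-responder 1.

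The mitotic genes were more alike among themselves than the S phase genes. Ccnb1, cyclin B1 (chromosome 13, 100778650 to 100786570), was at 73.7, 46.5 and 58.5 CPM in the controls. Responders 1 and 3 had 63.6 and 62.6 CPM, the unmarked tumour 66.0 CPM, and non-responders 1 and 2 had 108 and 48.8 CPM. Its partner kinase Cdk1 (chromosome 10, 69335146 to 69352938) was at 53.2, 49.8 and 47.0 CPM in controls, 61.5 and 62.4 CPM in responders 1 and 3, and 58.6 CPM in the unmarked tumour. In non-responders 1 and 2 Cdk1 was at 92.9 and 44.4 CPM. For both genes the 2 responders and the unmarked tumour lay within a narrow band, and for Cdk1 that band was above all controls.

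Ccna2, cyclin A2 (chromosome 3, 36564865 to 36572150), had the smallest p of the mitotic genes between the arms (log2 fold change 0.32, SE 0.15, edgeR FDR 0.346). Its values were 74.3, 65.1 and 62.1 CPM in controls, 95.1 and 82.7 CPM in responders 1 and 3, 79.8 CPM in the unmarked tumour, and 97.9 and 63.5 CPM in non-responders 1 and 2. Non-responder 2 alone of the Smyd3 ASO tumours lay inside the control range. Ccnb2, cyclin B2, ran from 14.2 CPM in control 2 to 27.5 CPM in non-responder 1.

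Birc5, survivin, a subunit of the complex that holds Aurora B at centromeres (chromosome 11, 117849251 to 117855743), came next. It was at 54.4, 44.1 and 48.8 CPM in controls, 66.7 and 65.4 CPM in responders 1 and 3, 60.1 CPM in the unmarked tumour, and 73.7 and 44.0 CPM in non-responders 1 and 2 (log2 fold change 0.34, SE 0.16, edgeR FDR 0.362). Again 4 of 5 Smyd3 ASO tumours were above every control and non-responder 2 was not. Cdc20, an activator of the anaphase-promoting complex (chromosome 4, 118432901 to 118437352), was at 90.8, 41.5 and 59.6 CPM in controls, 58.5 and 55.0 CPM in responders 1 and 3, and 48.1 CPM in the unmarked tumour. In non-responders 1 and 2 it was at 116 and 46.8 CPM, a ratio of 2.47 that was the highest of the 36 genes. Its log2 fold change between the arms was 0.02 (SE 0.35), the smallest of the mitotic genes.

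Of the mitotic kinases, Aurka, Aurkb and Plk1 and the checkpoint kinases Bub1 and Bub1b gave log2 fold changes between the arms from 0.07 (Bub1) to 0.33 (Aurka), with edgeR FDRs of 0.523 or more. In non-responder 1 they were 1.57 (Plk1) to 2.12 (Aurka) times as high as in non-responder 2. Control 1 was close to non-responder 1 in several of them. For Bub1b, control 1 stood at 74.5 CPM and non-responder 1 at 82.8 CPM, with the other 6 tumours at 42.5 to 59.7 CPM. Plk1 was higher in control 1 (59.2 CPM) than in non-responder 1 (58.6 CPM).

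The spindle motors Kif11 and Kif20a, the centromere proteins Cenpe and Cenpf and the spindle assembly factor Tpx2 were all highest in non-responder 1, by 1.67 to 2.02 times over non-responder 2. Kif11, whose promoter is printed above, ran from 44.1 CPM in control 2 to 87.5 CPM in non-responder 1. Tpx2 showed the position of control 1 again, at 102 CPM there against 54.8 and 65.3 CPM in controls 2 and 3. The arms overlapped for all 5 genes.

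Mki67, the source of the Ki-67 proliferation marker that coats mitotic chromosomes (chromosome 7, 135689784 to 135716361), was at 301, 213 and 259 CPM in controls. Responders 1 and 3 had 248 and 241 CPM, the unmarked tumour 298 CPM, and non-responders 1 and 2 had 379 and 205 CPM. By Mki67 alone both responders were therefore inside the control range. Top2a, the topoisomerase that untangles sister chromatids (chromosome 11, 98992943 to 99024189), was at 250.1, 194 and 229 CPM in controls, 260.3 and 256 CPM in responders 1 and 3, 295 CPM in the unmarked tumour, and 408 and 223 CPM in non-responders 1 and 2. Here 4 of 5 Smyd3 ASO tumours exceeded every control, by a small margin in the responders (log2 fold change 0.36, SE 0.19, edgeR FDR 0.414).

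The 2 arms were compared to ask whether they differ in these genes under anti-PD-1. Most members had slightly higher means in the Smyd3 ASO arm, 16 of 18 S phase genes and 18 of 18 mitotic genes. Their median log2 fold changes were 0.22 and 0.23, against 0.01 over all genes tested, of which 51.8% were above 0. The 2 exceptions were Cdt1 and E2f1, both at −0.07. No member passed, with 0 of 36 at an edgeR FDR of 0.05 and a lowest FDR of 0.227 for Tyms, in a comparison where 0% of the 16911 genes passed. At an unadjusted p under 0.05 stood 3 members (Tyms, Cdc6 and Rrm2), all higher in the Smyd3 ASO arm, against 15.6% of all genes in either direction and 8.55% higher. DESeq2 and limma voom also called 0 members, where they called 1053 and 0 of the 16911 genes. The members' median was 0.10 without non-responder 1 and 0.11 without control 2, with 27 of 36 genes above 0 in each case, and 0.34 without control 1.

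**Figure D2:**
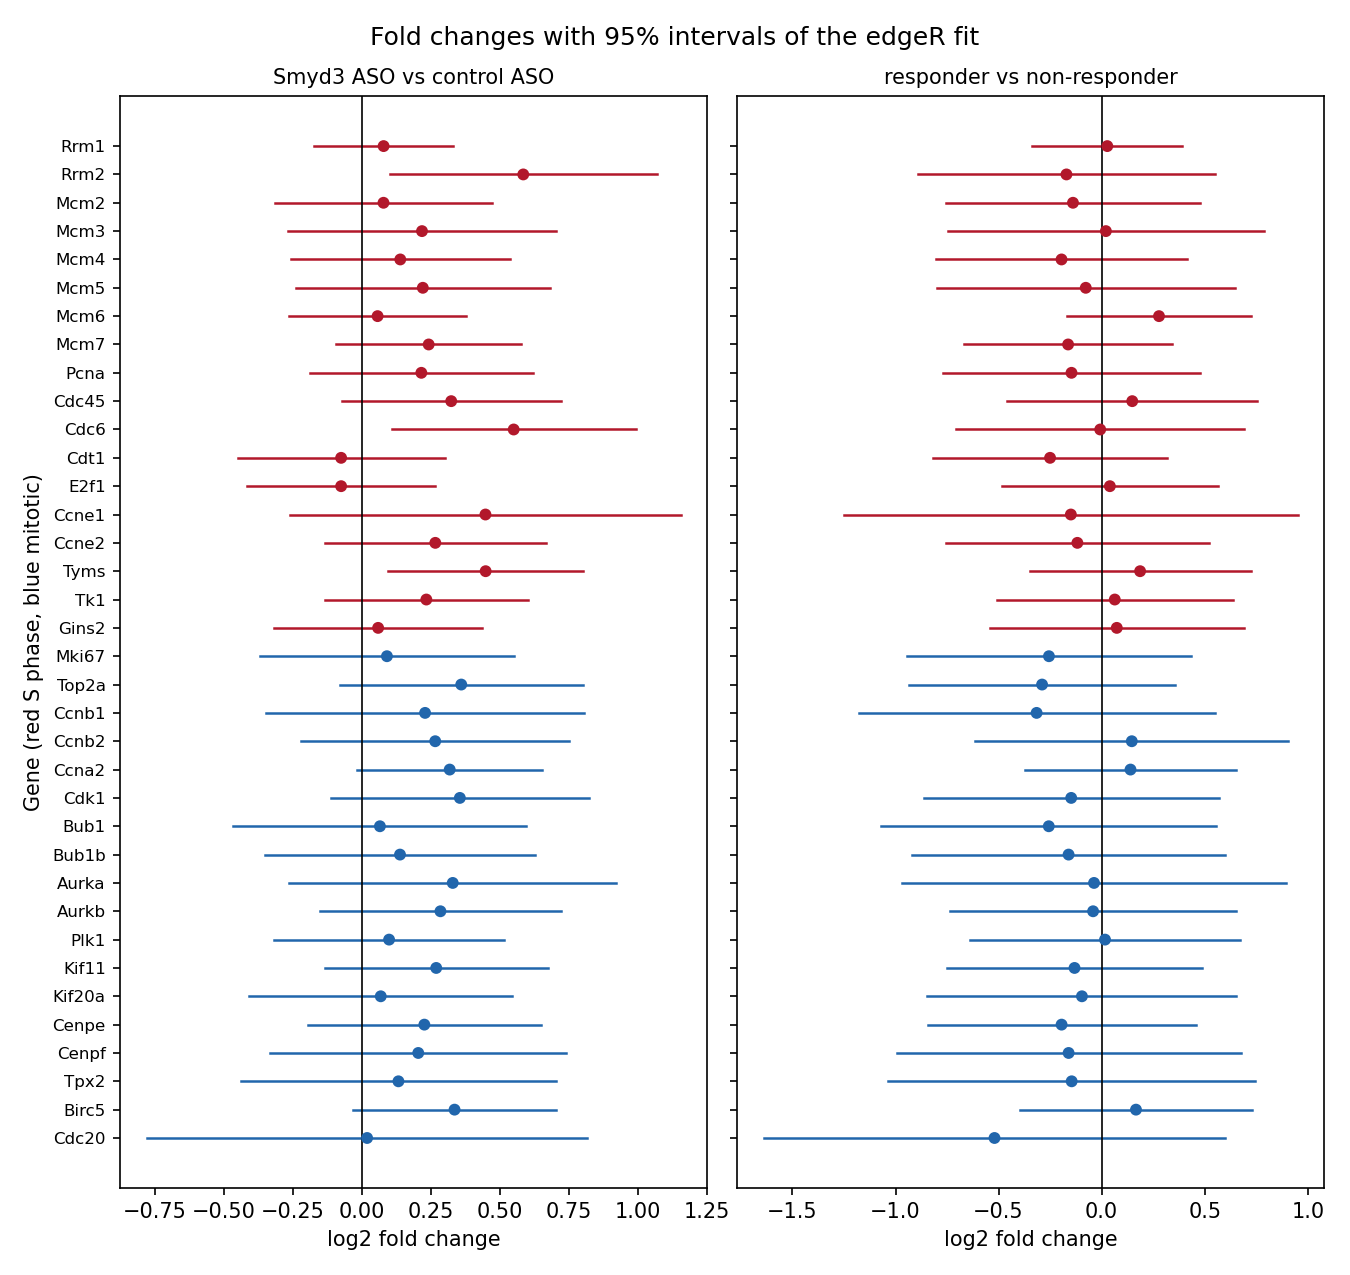
Points give the log2 fold change of each gene and bars its 95% interval from the edgeR fit, for Smyd3 ASO against control ASO on the left and for responders against non-responders on the right, with S phase genes in red and mitotic genes in blue. On the left the intervals of Rrm2, Cdc6 and Tyms lie above 0 and all others include 0, and on the right every interval includes 0.

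Responders were compared with non-responders, 2 tumours each, within the Smyd3 ASO arm. The means differed little, with 8 of 18 S phase and 4 of 18 mitotic genes above 0 and median log2 fold changes of −0.04 and −0.15, against 0.01 over all genes. By edgeR 0 of 36 members passed (0% of all genes), 0 had an unadjusted p under 0.05 (8.49% of all genes in either direction, 4.74% higher), and the lowest FDR was 0.702 for Mcm6. DESeq2 and limma voom called 0 members as well, where they called 225 and 0 of the 16911 genes. For none of the 36 genes were the 2 responders both above or both below the 2 non-responders, where 20.3% of all genes were higher and 18.9% lower without overlap. The intervals remain wide, as the one for Mki67 ran from −0.94 to 0.43 on the log2 scale. The direction depended on 1 tumour. Without non-responder 1 all 36 genes were higher in responders (median 0.40), and without non-responder 2 only 1 of 36 was (median −0.45).

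The 2 non-responders were further from each other than the groups were from each other. Non-responder 1 exceeded non-responder 2 in all 36 genes, by a median of 1.74 times (1.27 to 2.47), while the median over all genes tested was 0.98. This ratio had a median of 1.66 in the S phase genes and 1.85 in the mitotic genes. The ratio was at or over 1.2 in 36 of 36 members, against 26% of all genes. Compared with the control mean, non-responder 1 was above it in 36 genes and non-responder 2 below it in 32.

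By contrast, the 2 responders and the unmarked tumour were close together. They lay between the 2 non-responders, with non-responder 1 on top, in 33 of 36 genes (15 S phase and 18 mitotic), against 7.06% of all genes. The highest of these 3 tumours was a median of 1.16 times the lowest (1.03 to 1.38), against 1.33 over all genes tested. The filter asked for only 15 reads in total, while each member held at least 232 reads per tumour. These medians are therefore not matched for read level. In 9 of 36 genes (5 S phase and 4 mitotic) all 3 exceeded every control, against 12.4% of all genes.

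**Figure D3:**
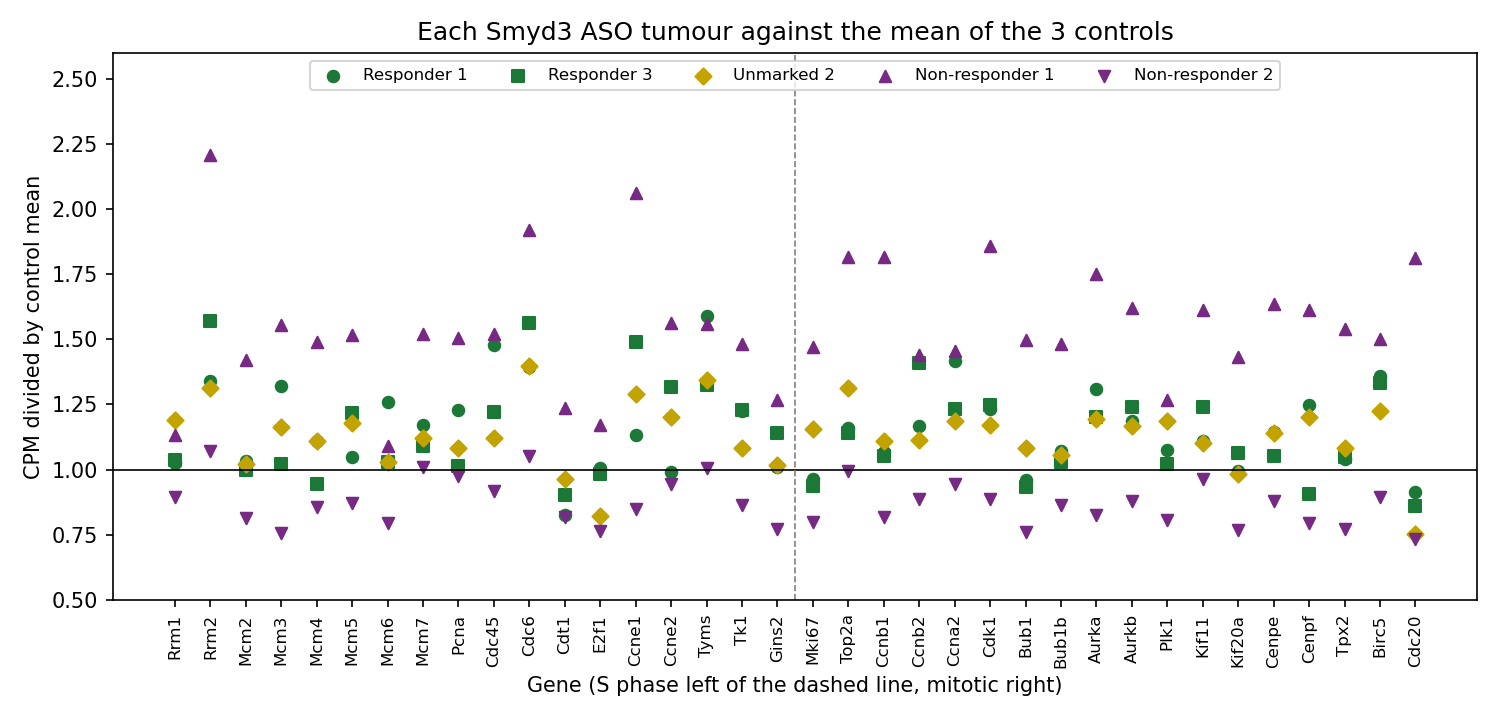
Each symbol is the CPM of 1 Smyd3 ASO tumour divided by the mean of the 3 controls, for each gene, with S phase genes left of the dashed line and mitotic genes right of it. Upward triangles (non-responder 1) lie above 1 for all 36 genes and downward triangles (non-responder 2) below 1 for 32, and the responders and the unmarked tumour lie mostly between them.

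Against the controls, responders had higher means in 31 of 36 genes, with medians of 0.19 (S phase) and 0.12 (mitotic) against 0.00 over all genes. None passed (0 of 36 by edgeR, against 1.66% of all genes), and the lowest FDR was 0.255, for Tyms (log2 fold change 0.54, SE 0.21). In this comparison 1 member had an unadjusted p under 0.05, against 16.6% of all genes in either direction and 9.62% higher. DESeq2 and limma voom called 0 members here, and 1153 and 135 of the 16911 genes. Both responders were above all controls in 10 genes, namely Rrm2, Mcm7, Cdc45, Cdc6, Tyms, Tk1, Top2a, Ccna2, Cdk1 and Birc5, against 18.8% of all genes. Non-responders against the same 3 controls gave 34 of 36 genes above 0, with medians of 0.24 and 0.27. There too 0 of 36 passed (0% of all genes) with a lowest FDR of 0.503, for Rrm2 (log2 fold change 0.71, SE 0.28), and 1 had an unadjusted p under 0.05 against 9.24% of all genes in either direction and 5.1% higher. DESeq2 and limma voom called 0 members between non-responders and controls, and 339 and 0 of the 16911 genes. Rrm2 was also the 1 gene with both non-responders above all controls, against 12.2% of all genes. The non-responder medians turned below 0 without non-responder 1, when 4 of 36 genes were above 0 (median −0.21), and reached 0.60 with all 36 above 0 without non-responder 2.

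Averaged into a score, the mean log2 CPM of the 18 genes, S phase genes stood at 5.58, 5.32 and 5.45 in the controls. The responders scored 5.68 and 5.67, the unmarked tumour 5.63, and non-responders 1 and 2 scored 6.03 and 5.28. For the mitotic genes the controls scored 6.11, 5.55 and 5.73, responders 1 and 3 scored 5.99 and 5.96, the unmarked tumour 5.98, and non-responders 1 and 2 scored 6.48 and 5.58. The SD between non-responders was 0.53 for S phase and 0.64 for mitotic genes, against 0.0065 and 0.026 between responders and 0.13 and 0.29 between controls. Responders and the unmarked tumour were above all 3 controls in the S phase score, and below control 1 in the mitotic score.

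**Figure D4:**
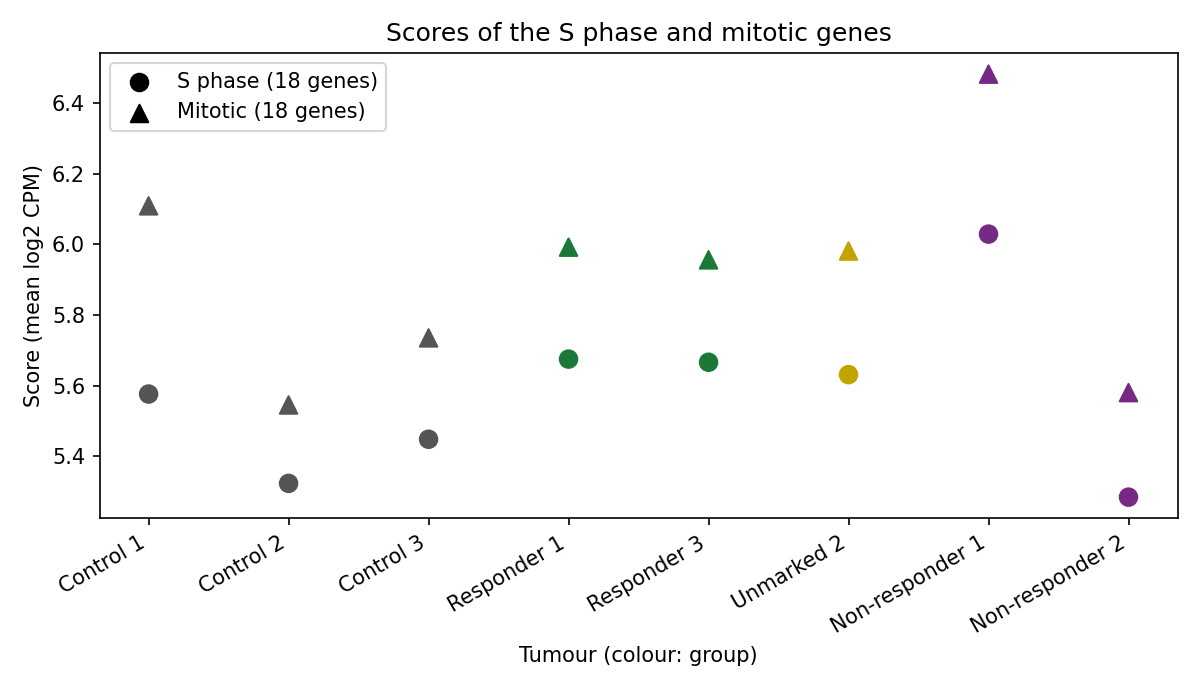
Circles give the S phase score and triangles the mitotic score (each the mean log2 CPM of 18 genes) of each tumour, with colour marking the group. The 2 responders and the unmarked tumour form a level row (5.63 to 5.68 and 5.96 to 5.99), and the 2 non-responders are the highest and nearly the lowest tumours.

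The 2 scores moved together across tumours, as the plot of scores shows, with Pearson's r of 0.96 and Spearman's rho of 0.81 over 8 tumours. Without the 2 tumours farthest from the median S phase score, which were the non-responders, r was 0.88 and rho 0.60 over 6. These are descriptions over tumours that share a cell line and a treatment course, and the S phase and mitotic genes were measured in the same libraries. Pairs of mitotic genes had a median r of 0.86 over the 8 tumours (0.49 to 0.99), and pairs of S phase genes a median of 0.71 (0.15 to 0.99). Pairs of an S phase with a mitotic gene had a median r of 0.78 (0.32 to 0.98), above that of the S phase pairs. The members that followed their own group least were Cdt1 (r of 0.61 with the mean of the other S phase genes), Mcm6 (0.63) and E2f1 (0.66). Ccnb1, Aurkb and Aurka followed theirs most closely (0.98 each).

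The S phase and mitotic genes came apart most in control 1. Its mitotic score exceeded its S phase score by 0.53, the widest gap of the 8 tumours, against 0.22 in control 2 and 0.45 in non-responder 1. Control 1 was above control 2 by a median of 1.43 times in mitotic genes and 1.17 times in S phase genes. The spread among controls was thus larger in mitotic than in S phase genes.

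Other replication and mitotic genes, from lists that were also drawn up with earlier results of these data known and so give no independent support, had values similar to those of the members. Of 49 other replication genes, 45 were above 0 between the arms (median 0.165) and 38 were highest in non-responder 1. Of 58 other mitotic genes, 50 were above 0 (median 0.174) and 43 were highest in non-responder 1. Of all genes tested, 51.8% were above 0 and 18.5% were highest in non-responder 1. The non-responder ratio was at a median of 1.47 and 1.73 in the lists of 49 and 58, against 0.98 over all genes. By edgeR 0 of the 49 and 0 of the 58 passed in any of the 4 comparisons. Of all genes, 1.66% passed between responders and controls and 0% in the other comparisons.

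The genes with the smallest p were Slbp, the histone mRNA binding protein of S phase, and Cdc7, a kinase that fires origins. Slbp was at 37.7, 37.1 and 37.7 CPM in controls and at 44.96 to 57.3 CPM in the Smyd3 ASO tumours (log2 fold change 0.46, SE 0.11, edgeR FDR 0.105). Cdc7 was at 13.7 to 15.1 CPM in controls and at 16.9 to 30.3 CPM in the Smyd3 ASO tumours (0.60, SE 0.18, edgeR FDR 0.191). Neither passed, and in both genes every Smyd3 ASO tumour was above every control, non-responder 2 included. Of the 49 other replication genes, 4 were higher without overlap, against 5.45% of all genes. Among mitotic genes the smallest p was that of Pbk, a mitotic kinase, at 16.1 to 20.3 CPM in controls and 19.3 to 26.4 CPM in the Smyd3 ASO arm (0.43, SE 0.14, edgeR FDR 0.213).

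Regulators of G1 and inhibitors of the cycle ranked the tumours differently. The 7 G1 cyclins and kinases had a non-responder ratio of 1.08 at the median. Of these 7, 3 were highest in non-responder 1, against 18.5% of all genes. Ccnd1, cyclin D1, was at 794, 955 and 598 CPM in controls and at 479 to 771 CPM in the Smyd3 ASO tumours (log2 fold change −0.39, SE 0.20, edgeR FDR 0.395). Ccnd2, cyclin D2, was higher in both non-responders (649 and 740 CPM) than in both responders (430.3 and 537 CPM), with a log2 fold change of −0.52 (SE 0.19, edgeR FDR 0.554). It was the 1 of the 7 lower in responders without overlap, against 18.9% of all genes. Of 9 cell cycle inhibitors, 2 were above 0 between the arms (median −0.14) and 1 was highest in non-responder 1. The same shares over all genes were 51.8% and 18.5%. None of the 7 or the 9 passed at an edgeR FDR of 0.05 in any of the 4 comparisons. The share of all genes that passed was 1.66% between responders and controls and 0% otherwise.

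Wee1, the kinase that holds Cdk1 inactive, was lower in every Smyd3 ASO tumour than in every control. It was the 1 of the 9 inhibitors lower without overlap, against 5.14% of all genes. It stood at 60.6, 55.0 and 55.9 CPM in controls, at 41.5 and 37.2 CPM in responders 1 and 3, at 42.4 CPM in the unmarked tumour, and at 47.8 and 36.4 CPM in non-responders 1 and 2. Its log2 fold change of −0.48 (SE 0.11) did not pass (edgeR FDR 0.101). Cdkn2d, an inhibitor of cyclin D kinases, was at 22.8 to 26.1 CPM in controls and 17.2 to 24.6 CPM in the Smyd3 ASO arm (−0.34, SE 0.14, edgeR FDR 0.299). Of 19 E2F, pocket protein and MuvB factors, 15 were above 0 between the arms (median 0.12), 11 were highest in non-responder 1, and 0 passed. Of all genes, 51.8% were above 0, 18.5% were highest in that tumour and 0% passed. E2f2 had the smallest p of the 19 factors, at 25.4, 13.3 and 18.8 CPM in controls and 24.3 to 41.3 CPM in the Smyd3 ASO tumours (0.63, SE 0.24, edgeR FDR 0.264).

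Transcripts of other cell types differed between the same tumours. In non-responder 1 the 10 fibroblast markers had their lowest score (6.64, against 6.97 to 7.92 in the other 7 tumours), as did the 8 endothelial markers (3.998, against 4.33 to 5.18). The score of the 12 epithelial markers was 9.88 in non-responder 1 and 9.83 in non-responder 2, and all 5 Smyd3 ASO tumours (9.53 to 9.98) were below the controls (10.05 to 10.34). Their summed level, to which Krt5 and Krt14 contribute most, was 38635 CPM in non-responder 1 and 26659 CPM in non-responder 2, and 29939 to 40745 CPM in controls. Epcam (189 and 324 CPM) and Cdh1 (381 and 519.6 CPM) were lower in non-responder 1 than in non-responder 2, unlike Krt5 and Krt14. Control 2, low in cell cycle genes, had the highest fibroblast, endothelial and epithelial scores. Non-responder 2, also low in cell cycle genes, had lower fibroblast and endothelial scores than control 2, at 6.99 and 4.36. The 12 T and NK cell markers summed to 28.1 to 61.5 CPM in controls, 100.1 and 214 CPM in responders 1 and 3, and 42.3 and 82.1 CPM in non-responders 1 and 2. The 9 macrophage markers summed to 633 to 1168 CPM in controls and to 599 to 1446 CPM in the Smyd3 ASO arm, with the lowest value in non-responder 1.

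Between the arms, the 15 skeletal muscle markers summed to 34.3 to 103 CPM in controls and to 747 to 12979 CPM in the Smyd3 ASO tumours, all 15 higher without overlap, against 5.45% of all genes. The 8 tested adipocyte markers summed to 45.7 to 63.1 CPM in controls and 55.2 to 315 CPM in the Smyd3 ASO arm. The 7 tested hair follicle markers summed to 529 CPM in non-responder 2 and to 28.4 to 116 CPM in the other tumours. The 7 tested B and plasma cell markers summed to 1.80 to 162 CPM, with both ends in the Smyd3 ASO arm. Of the defining markers, for example, Ms4a1 and Ncr1 were at 0 in control 1, Pvalb in control 2, Mzb1 in control 3 and non-responder 1, and Adipoq in controls 2 and 3 and non-responder 1. The part of these cell types in the cell cycle values was not tested.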

How the data were processed

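Messenger RNA of 8 tumours was sequenced from stranded polyA libraries, per the labels' protocols. Tools listed by the submitters' processing notes are RSEM 1.3.0, STAR 2.7.0f, cutadapt 1.18 and bcl2fastq 2.17, with the build mm10. The authors deposited expected counts per gene, which were rounded to whole numbers here. Symbols and coordinates came from GENCODE M21, which held all 55450 identifiers.

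Genes with at least 0.424 CPM in 2 libraries and 15 reads in total were kept, which left 16911. Tests used edgeR 4.0.16 in R 4.3.3 after TMM normalisation (robust quasi-likelihood, two-sided, FDR threshold 0.05 over all genes tested). Arms were compared in a model with treatment alone over all 8 libraries, and the other 3 contrasts came from a 4-group model. Responders and non-responders share their controls, so their contrasts were not compared with each other. Scores used a prior count of 2. DESeq2 1.42.0, limma 3.58.1 and other settings were alternatives. The labels do not say whether same-numbered tumours are related. Each p-value weighs a difference between groups against the spread of these tumours within groups. In the 4-group model the unmarked tumour, alone in its group, adds nothing to that spread.

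The members and lists were chosen with earlier results of these data known. Values in every tumour are given for Mki67, Top2a, Ccnb1, Cdk1, Pcna, Mcm2, E2f1, Ccne1 and the 4 S phase and 4 mitotic genes of smallest p in each of 2 comparisons. Up to 3 genes of each other list were named by smallest p. Pseudogene copies of Pcna, Ccnb1, Ccnb2 and Tyms held at most 21 reads per library, so read sharing with them is uncertain but small by these counts. A level of 1 CPM before scaling is 22.1 to 27.3 reads.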

Additional observations from a re-analysis of the deposited data

Results flagged for a closer look

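Among the 36 genes, 2 had a single tumour far from the other 4 of the Smyd3 ASO arm. Ccnb1 stood at 108 CPM in non-responder 1, with the other 4 tumours at 48.8 to 66.0 CPM. Cdc20 stood at 116 CPM in the same tumour, with the others at 46.8 to 58.5 CPM. The gap to the nearest tumour, divided by the range of the 5 tumours, was 0.711 for Ccnb1 and 0.831 for Cdc20. The Dixon critical value for 5 samples is 0.71, so Ccnb1 only just exceeded it. Chance flags about 1 in 20 groups, and all 36 genes and both scores were examined. For Cdc20, control 1 was also high, at 90.8 CPM.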

How the results depend on the processing

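No member was called at FDR 0.05 under any alternative run, and the lowest member FDR was 0.0785, for responders against controls with a replicate block. That fit had almost as many terms as libraries, with a term for the unmarked tumour alone, so its FDRs and calls rest on little replication. Deviations of same-numbered tumours correlated at −0.03, 0.00 and 0.08, and those of differently numbered tumours at −0.15 to 0.14. With so few tumours this does not settle whether same-numbered tumours are related. With the block in the 6 numbered libraries, members called stayed at 0, while genes called in all were 249 between the arms and 809 between responders and controls. Over all genes, calls between the arms were 0 in the reported fit, 1053 by DESeq2, 52 without a filter, 285 in the 6 numbered libraries without the block, 25 when responders and non-responders were weighted equally, and 0 to 249 without 1 tumour (249 without non-responder 1, 5 without control 1). Between responders and non-responders they were 225 by DESeq2, 7 without a filter and 0 to 22 without 1 tumour. Between responders and controls they were 280, and 1153 by DESeq2, 135 by limma voom, 499 without a filter, 171 with only these groups and 0 to 298 without 1 tumour. Between non-responders and controls they were 339 by DESeq2 and 32 without a filter. With limma voom the S phase median between responders and non-responders was 0.01 instead of −0.04. The S phase score difference between responders and controls was 0.22, and 0.38 with the median of members. Counting TTTAAA as a CHR raised its S phase genes from 2 to 6.

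Leaving out 1 tumour moved the S phase score difference from −0.36 to 0.39 between responders and non-responders and from −0.17 to 0.58 between non-responders and controls, where the mitotic score ran from −0.22 to 0.69. Between responders and non-responders, log2 fold changes that turned ran from −0.79 to 0.37 (Ccnb1), −0.66 to 0.63 (Ccne1), −1.04 to 0.28 (Cdc20), −0.59 to 0.48 (Cdk1), −0.53 to 0.0775 (Cdt1), −0.24 to 0.38 (E2f1), −0.50 to 0.32 (Mcm2), −0.44 to 0.16 (Mcm7), −0.64 to 0.25 (Mki67), −0.43 to 0.20 (Pcna), −0.67 to 0.21 (Top2a) and −0.11 to 0.54 (Tyms). The ends were without non-responder 2 and without non-responder 1. Between the arms, Mcm2 ran from −0.0514 to 0.18 and Mki67 from −0.0535 to 0.22. The members held 232 to 8851 reads per library.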

Other observations

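Cdkn1c, an inhibitor of cyclin-dependent kinases, was the cell cycle inhibitor with the smallest p between responders and non-responders. It stood at 1.08, 1.07 and 1.43 CPM in controls, at 2.92 and 4.53 CPM in responders 1 and 3, at 2.87 CPM in the unmarked tumour, and at 1.01 and 0.958 CPM in non-responders 1 and 2. The log2 fold change was 1.91 (SE 0.42), which did not pass (edgeR FDR 0.505). Cdkn1a, which encodes p21, was higher in both non-responders (187 and 156 CPM) than in both responders (121 and 100.3 CPM), with a log2 fold change of −0.63 (SE 0.28, edgeR FDR 0.595). Rbl1, a pocket protein, stood at 89.6 and 63.3 CPM in non-responders 1 and 2, at 60.7 and 51.8 CPM in responders 1 and 3, and at 68.5 CPM in the unmarked tumour (−0.44, SE 0.25, edgeR FDR 0.657). The smallest p of its list was that of Lin54, also lower in both responders (−0.33, SE 0.18, edgeR FDR 0.644). In the genes named here the 2 responders did not overlap the 2 non-responders, as in 20.3% (higher) and 18.9% (lower) of all genes. Of the 9 cell cycle inhibitors, 3 were higher and 3 lower without overlap. Of the 19 E2F, pocket protein and MuvB factors, 1 was higher and 3 were lower, and none of the 36 cell cycle genes was either.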
